A study of Mus musculus with 3 samples.

Results

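The genes described here encode the nuclear part of oxidative phosphorylation: subunits of respiratory complexes I to V and assembly factors of complex I. They were taken by name from the deposited annotation: gene names that start with Nduf, Uqcr or Atp5, or with Cox followed by 4, 5, 6, 7 or 8, and Sdha, Sdhb, Sdhc, Sdhd and Cyc1. This gave 58 of the 19054 genes named as nearest gene in any of the 3 files, and 542 of 543367 listed regions. Of these, 7 were core subunits of complex I, 18 accessory subunits and 7 assembly factors, and 2, 6, 10 and 8 belonged to complexes II, III, IV and V. Ndufa4 and its paralogue Ndufa4l2 were placed with complex IV, of which NDUFA4 is now known to be a subunit. Another 36 gene symbols that the same rule names in the GENCODE annotation were nearest gene of no region in the files analysed here, and are described only by windows around their start sites.

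Oxidative phosphorylation passes electrons from NADH and succinate through complexes I to IV to oxygen, and complex V uses the resulting proton gradient to make ATP. In β cells, mitochondrial ATP closes a potassium channel of the plasma membrane and so couples glucose to insulin secretion. Many nuclear genes of the chain have compact promoters with recognition words for NRF1, YY1, the estrogen-related receptors (ERR) and GABP, a factor of the ETS family to which Ets-1 also belongs. ETS factors share the core word GGAA, so a word alone does not tell which of them binds.

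The libraries came from Min6, a mouse insulinoma line kept in medium with 25 mM glucose. Cells received Ad-GFP, a control virus, or Ad-Ets-1, an adenovirus for overexpression of Ets-1, for 24 h, and chromatin of each was precipitated with an Ets1 antibody. The remaining library held input chromatin without precipitation, and the labels do not state which virus its cells had received. Chromatin was crosslinked with 1% formaldehyde for 10 min. Each group held 1 library, so no difference has a replicate check and no test between conditions is possible. DNA libraries give no expression, so the cell line was not checked against expression markers.

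Depth was low. The Ad-Ets-1, Ad-GFP and input libraries held 1938473, 1775757 and 3937471 reads, and 91.0%, 89.3% and 99.9% of all listed regions held 2 or fewer of them. Regions of the oxidative phosphorylation genes held 578, 781 and 52 reads in all, and the highest count in any 1 of them was 8, 10 and 2. A peak of 2 reads was taken as 1 read pair, an inference from the large share of even counts in the precipitated libraries. Intervals below are exact, at the 95% level, and cover counting error only; reads amplified by PCR are not independent molecules. Ratios are of reads scaled to library totals, and each pair of reads was counted as 1 fragment for their intervals.

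Promoter sequences are shown for members on both sides of the data. The first 3 lie under listed regions, and the last 3 hold ETS words but lie outside every listed promoter region. Sequences are those of RefSeq (GRCm38.p6, the assembly that mm10 stands for), in the direction of the gene, from 250 bases before the start to 30 after it. Capitals mark the ETS words CCGGAAG and CAGGAAG, the NRF1 word GCGCATGC, the YY1 word AAGATGGCG and the ERR word TCAAGGTCA, each on either strand.
Ndufb6, chr4:40279392-40279671, minus strand: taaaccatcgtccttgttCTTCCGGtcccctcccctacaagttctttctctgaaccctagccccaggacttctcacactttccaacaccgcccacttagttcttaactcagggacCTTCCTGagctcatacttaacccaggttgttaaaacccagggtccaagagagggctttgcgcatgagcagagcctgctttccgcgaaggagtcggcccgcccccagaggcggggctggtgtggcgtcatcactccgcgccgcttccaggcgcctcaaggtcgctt
Ndufa6, chr15:82354262-82354541, minus strand: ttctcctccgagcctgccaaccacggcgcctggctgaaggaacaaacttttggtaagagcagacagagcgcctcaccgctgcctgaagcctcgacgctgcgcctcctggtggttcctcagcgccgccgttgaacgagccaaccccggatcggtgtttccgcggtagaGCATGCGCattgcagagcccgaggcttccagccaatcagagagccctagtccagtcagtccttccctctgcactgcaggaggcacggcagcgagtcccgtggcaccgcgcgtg
Atp5j, upstream start, chr16:84835596-84835875, minus strand: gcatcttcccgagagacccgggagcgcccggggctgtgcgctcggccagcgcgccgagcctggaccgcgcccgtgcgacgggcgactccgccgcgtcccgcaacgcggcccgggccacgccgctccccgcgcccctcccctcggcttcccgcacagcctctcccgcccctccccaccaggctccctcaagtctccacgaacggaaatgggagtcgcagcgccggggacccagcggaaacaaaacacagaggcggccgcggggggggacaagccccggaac
Atp5j, downstream start, chr16:84834947-84835226, minus strand: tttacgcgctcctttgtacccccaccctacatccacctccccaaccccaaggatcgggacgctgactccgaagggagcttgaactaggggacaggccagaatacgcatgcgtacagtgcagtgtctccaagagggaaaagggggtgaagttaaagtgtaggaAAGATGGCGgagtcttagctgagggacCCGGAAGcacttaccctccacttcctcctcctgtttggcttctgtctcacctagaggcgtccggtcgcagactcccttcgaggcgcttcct
Cox8a, chr19:7217587-7217866, minus strand: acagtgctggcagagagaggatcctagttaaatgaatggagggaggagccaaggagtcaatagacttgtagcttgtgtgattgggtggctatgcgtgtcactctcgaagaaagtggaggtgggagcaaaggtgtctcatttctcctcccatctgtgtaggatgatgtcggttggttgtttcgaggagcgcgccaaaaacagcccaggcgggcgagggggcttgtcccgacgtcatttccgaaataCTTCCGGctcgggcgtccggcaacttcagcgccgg
Ndufs3, chr2:90904692-90904971, minus strand: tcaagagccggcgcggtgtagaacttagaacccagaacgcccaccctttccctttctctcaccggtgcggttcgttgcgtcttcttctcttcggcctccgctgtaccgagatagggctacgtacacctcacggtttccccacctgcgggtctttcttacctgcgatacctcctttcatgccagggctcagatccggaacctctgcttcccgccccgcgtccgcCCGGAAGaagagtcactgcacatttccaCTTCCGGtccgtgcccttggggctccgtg

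Ndufb6, an accessory subunit of complex I, held an ETS word that begins 232 bases before the start and another 135 bases before it. The second (chr4:40279550-40279556) lay inside a region listed in both peak lists, which covered 218 of the 280 bases shown. Ndufa6 held an NRF1 word 83 bases before its start, inside a listed region that covered 129 bases. These listed regions merge the peaks of both lists, and both words (that of Ndufa6 at chr15:82354367-82354374) lay in the stretch called with Ad-GFP and outside the peak called with Ad-Ets-1. The upstream start of Atp5j, which encodes coupling factor 6 of complex V, held none of these words although a region covered 172 bases of it. Its downstream start held a YY1 word 88 and an ETS word 61 bases before the start, and no listed promoter region touched it. Cox8a (a complex IV subunit) held an ETS word 5 bases before its start, and Ndufs3, a core subunit of complex I, held words 27 bases before and 2 bases after its start.

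Across complexes, promoter peaks were listed for 25 of the 58 genes with Ad-GFP (43.1%, interval 30.2 to 56.8) and for 19 with Ad-Ets-1 (32.8%, 21 to 46.3). Over all 19054 named genes the shares were 48.6% and 37.7%. Both lists held a promoter peak for 10 members (17.2%), against 24.2% of all named genes. The interval of each single list includes the background of that list. The order depends on which members are counted: without assembly factors and tissue isoforms, 24 of 48 members (50%) had an Ad-GFP peak, above 48.6%, and 17 (35.4%) an Ad-Ets-1 peak, below 37.7%. Of the 34 members with a listed promoter region, 15 were in the Ad-GFP list alone and 9 in the Ad-Ets-1 list alone. Of all 19054 named genes, 9268 had a promoter peak in the Ad-GFP list, 7174 in the Ad-Ets-1 list and 4620 in both. The counts of members in a single list alone were not tested against these and do not set the members apart. The other 24 members had regions elsewhere but none at a promoter, a count given here without its share over all named genes. Counted by region, 56.4% of the 55 member promoter regions were in the Ad-GFP list alone and 34.5% in the Ad-Ets-1 list alone. For the promoter regions of all named genes these shares were near, at 56.7% and 36.3%.

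By complex, the counts were too small to set one apart. Core subunits of complex I, which carry its redox centres or lie beside them, had Ad-GFP promoter peaks at 4 of 7 genes and Ad-Ets-1 peaks at 2. Accessory subunits had 10 and 8 of 18, and the assembly factors, which help to build the complex, 1 and 1 of 7. Complex II had 1 and 0 of 2, with a peak at Sdha, the flavoprotein subunit, and none at Sdhb. Complex III, the cytochrome bc1 complex, had 2 and 2 of 6, complex IV, the terminal oxidase, 3 and 2 of 10, and complex V 4 and 4 of 8. The widest interval, that of complex II with Ad-GFP, ran from 1.26% to 98.7%.

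**Figure D1:**
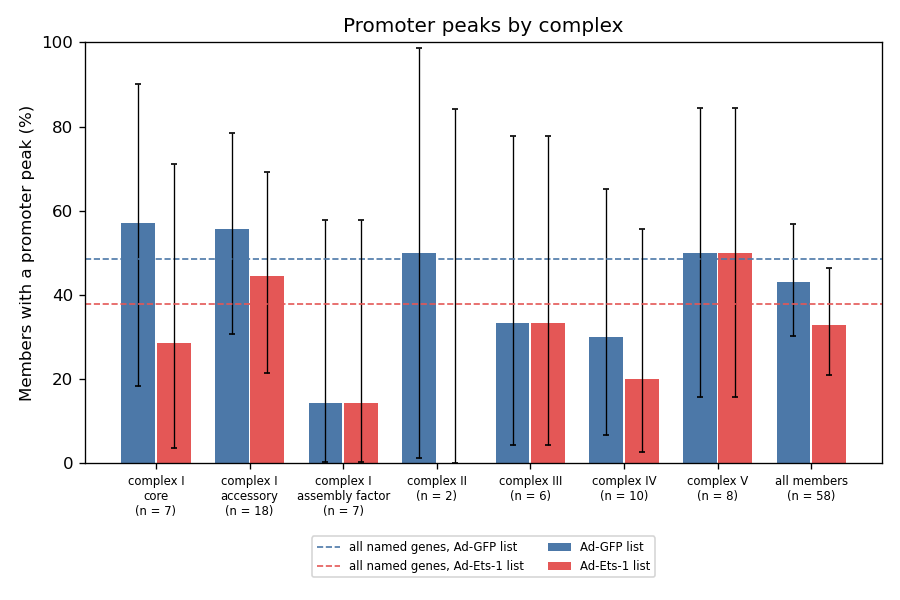
Share of members with a promoter peak in each deposited list (vertical axis, percent), by complex with the number of genes; bars are 1 library each, error bars are exact 95% intervals and dashed lines are the shares of all named genes, 48.6% with Ad-GFP and 37.7% with Ad-Ets-1. For every complex and for all 58 members the intervals include the dashed line of the same list.

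The member promoters held 88 reads with Ad-Ets-1, 80 with Ad-GFP and 12 in the input, over 55 regions. The Ad-Ets-1 to Ad-GFP ratio of these sums was 1.01 (interval 0.663 to 1.58), an interval that spans 1. Against the input the ratios were 14.9 (8.50 to 33.6) with Ad-Ets-1 and 14.8 (8.23 to 33.1) with Ad-GFP. Regions entered the table because they were called in a precipitated library, so a ratio above 1 to the input follows from that choice and is not a measure of binding. In 45 of the 55 regions the input held 0 reads.

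**Figure D2:**
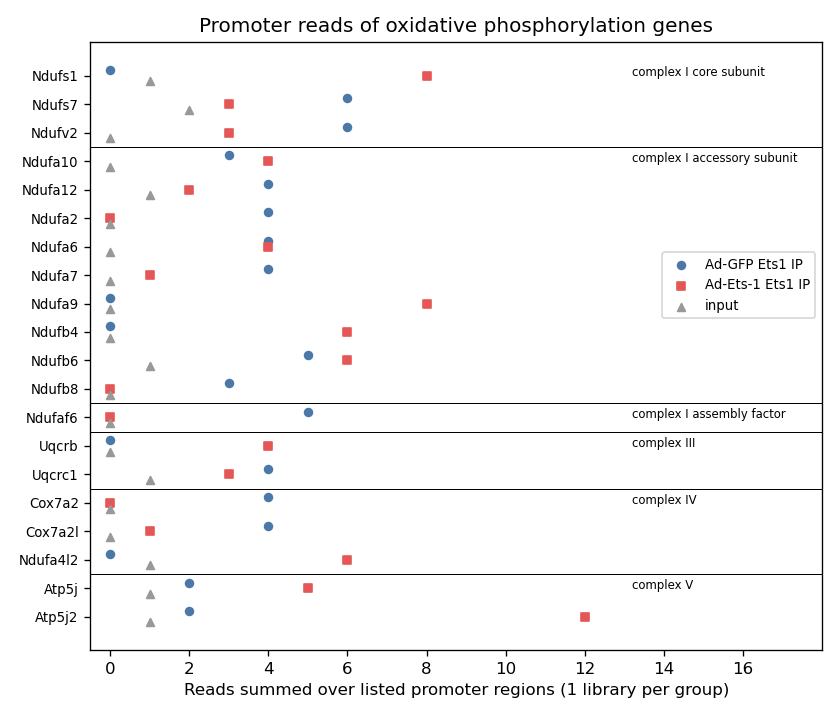
Reads summed over the listed promoter regions of each of the 20 members with 3 or more such reads in either precipitated library (horizontal axis, reads; 1 library per group), grouped by complex. Atp5j2 reaches 12 reads with Ad-Ets-1 and Ndufs1 and Ndufa9 reach 8, while no member passes 6 with Ad-GFP or 2 in the input.

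Ndufs1, the largest core subunit of complex I and a carrier of iron-sulfur clusters, had the best-read single promoter region (chr1:63176775-63177053). It held 8 reads with Ad-Ets-1, 0 with Ad-GFP and 1 in the input. Taken against a floor of 3 reads for the count of 0, this is at least 2.44-fold higher with Ad-Ets-1. On fragments, 4 against 0, the interval starts at 0.605 and spans 1. The region was listed with Ad-Ets-1 alone, at a fold enrichment of 4.10 and a −log10 q of 1.54 in the authors' deposited table. The sources used here do not say if peaks were called against the input, so what the deposited folds and q values are measured against is not known. The Ndufs1 peak was the only member promoter peak of either list with a q of at most 0.05, and 3.42% of all named promoter peaks in the Ad-Ets-1 list and 1.17% in the Ad-GFP list passed the same threshold. The region covered 59 exon bases and also holds an annotated start of Eef1b2, a translation elongation factor gene, so its reads cannot be assigned to 1 of these genes. Its central 240 bases held the ETS word CCGGAAGT.

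Complex V had the member with most promoter reads. Atp5j2, which encodes the membrane subunit f, had 3 promoter regions with 6, 4 and 2 reads with Ad-Ets-1, 2, 0 and 0 with Ad-GFP, and 1, 0 and 0 in the input. The first (chr5:145190380-145190875, 636 bp past the nearest start) was listed in both and had a ratio of 2.75 (0.221 to 144). The second (chr5:145191164-145191563) lay on a start. A further region 1855 bp past the start, annotated as an exon, held 6 reads with Ad-Ets-1 and 0 in the other 2 libraries. Each of the 4 Atp5j2 regions held more reads with Ad-Ets-1 than with Ad-GFP, and the 3 intervals that could be given span 1.

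Atp5j had 1 promoter region (chr16:84835704-84835952), at -79 bp from its start, with 5 reads with Ad-Ets-1, 2 with Ad-GFP and 1 in the input, a ratio of 2.29 (0.221 to 144). Its deposited fold of 3.40 was the second highest among member promoter peaks of the Ad-Ets-1 list. A start of Gabpa, which encodes the DNA-binding subunit of the ETS factor GABP, lay 580 bp from this region. Atp5f1 and Atp5g2 (subunits b and c) each had 1 region with 2 reads with Ad-Ets-1 and 0 with Ad-GFP and another with 0 and 2, the latter with 1 input read at Atp5g2, and Atp5a1, the catalytic-core α subunit, had 0 reads with Ad-Ets-1 and 2 each with Ad-GFP and in the input. Atp5g3, Atp5k and Atp5l had no promoter region.

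Among accessory subunits of complex I, Ndufb6 had a region over its start (chr4:40278915-40279609) with 6 reads with Ad-Ets-1, 2 with Ad-GFP and 0 in the input, a ratio of 2.75 (0.221 to 144). A second Ndufb6 region at -794 bp from the start had the reverse order, with 0, 3 and 1 reads. Ndufa6 held 4, 2 and 0 reads over its start (chr15:82353919-82354390), a ratio of 1.83 (0.0954 to 108), and 0, 2 and 0 further upstream. Ndufa9, which lies at the junction of the membrane and matrix arms, had 2 regions, each with 4 reads with Ad-Ets-1 and 0 with Ad-GFP, or at least 1.22-fold higher against the floor in each. Ndufa2 had 0 reads with Ad-Ets-1 and 4 with Ad-GFP. No interval is given for the upstream regions of Ndufb6 and Ndufa6, and those of the other regions spanned 1.

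The members with a promoter peak in both lists were Ndufa6, Ndufa10, Ndufa12, Ndufb2, Ndufb6, Ndufv2, Uqcrc1, Atp5f1, Atp5g2 and Atp5j2. In Ndufa12, Uqcrc1, Ndufv2, Atp5f1 and Atp5g2 no region was shared by the lists, and those of Ndufv2 and Uqcrc1 lay at more than 1 annotated start. Ndufa10 had 2 promoter regions with 2 reads each with Ad-Ets-1 and 2 and 1 with Ad-GFP, and Ndufb2 had 2 and 2 reads in 1 region. Ndufv2, the core subunit with a binuclear iron-sulfur cluster, had 4 promoter regions with 3 reads in all with Ad-Ets-1 and 6 with Ad-GFP. Uqcrc1, a core protein of complex III, had 3 regions with 3 and 4 reads. Only 5 of the 55 regions were marked in both lists, or 9.09%, against 6.97% of 23534 promoter regions of all named genes.

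No promoter region listed with Ad-GFP alone held more than 4 reads. Ndufs7, a core subunit with the last iron-sulfur cluster before ubiquinone, held 4 reads with Ad-GFP, 3 with Ad-Ets-1 and 2 in the input over its start (chr10:80248741-80249165), a ratio of 0.687 (0.0664 to 12.6). Cox7a2 held 4, 0 and 0 reads over its start, and Cox7a2l, a factor of supercomplex assembly, 4, 1 and 0, a ratio of 0.229 (0.00776 to 8.80). In the authors' deposited table the highest Ad-GFP folds among member promoters were 2.81 at Cox7a2 and 2.74 at Ndufa2, Ndufb6 and Ndufs7. The other 32 of 36 Ad-GFP promoter peaks had a fold under 2.

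With Ad-Ets-1, of 24 member promoter peaks, 16 had a deposited fold under 2, 6 one of 2 to 3, and 2 one of 3 or more (Ndufs1 and Atp5j). Next in rank stood Uqcrb at 2.78, Ndufa4l2 at 2.78 and Atp5j2 at 2.76. A fold of 2 or more was reached by 33.3% of member promoter peaks with Ad-Ets-1 and 11.1% with Ad-GFP, against 22.8% and 13.8% of the promoter peaks of all named genes. These folds belong to separately called lists, and the difference between them was not tested.

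A promoter region with 5 or more reads in either precipitated library was found for 5 of 58 members (8.62%), which is near the 8.39% of all named genes. These were Ndufs1, Ndufb6, Ndufa4l2, Atp5j and Atp5j2, each with 1 such region. All 5 regions were higher with Ad-Ets-1, with 31 reads in all against 6, and 4 of them reached a ratio of 2. Ndufa4l2, a hypoxia-induced paralogue of Ndufa4, is the fifth, with 6 reads with Ad-Ets-1, 0 with Ad-GFP and 1 in the input at a deposited distance of -1917 bp from its start, or at least 1.83-fold higher against the floor. Among the promoter regions of all named genes with as many reads, 61.6% of 1707 were higher with Ad-Ets-1. The 5 regions were picked by their reads, so their summed ratio is a description.

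Single member regions held too few reads for a difference between the viruses to show. Against 0 reads in the other library, at least 6 fragments with Ad-Ets-1 or 5 with Ad-GFP are needed for the interval of the ratio to exclude 1, and no member promoter region held more than 4 and 2. The interval of the Ad-Ets-1 to Ad-GFP ratio lay above 1 in 0 of 55 member promoter regions, against 0.153% of those of all named genes, and below 1 in 0, against 0.144%. Over all classes of region it lay above 1 in 0 of 542 and below 1 in 0 of 542, against 0.0497% and 0.0752% of all named regions. A difference in the member promoter regions was thus not detectable at this depth, and these counts of 0 say nothing about the members.

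Within the promoters, 15 of the 55 regions lay on a start site (27.3%), 25 before one and 15 past one, against 14.4% on a start for all named genes. Among the 14 regions with 4 or more reads in either precipitated library, 6 lay on a start (42.9%), against 25.9% of 4546 such regions of all named genes. Below 4 reads the shares were 22% and 11.7%. A wider region, or a gene with more annotated starts, meets a start more easily, and neither was accounted for. The median number of starts was 4 for the genes that the rule names and 3 for all protein-coding genes. The 6 regions with 4 or more reads on a start were those of Ndufs1, Ndufs7, Ndufa6, Ndufb6, Cox7a2 and Atp5j2. In 7 of the 55 regions the start of another protein-coding gene lay within 1 kb, as at Ndufs1 with Eef1b2, Ndufa7 with the ribosomal protein gene Rps28, and Atp5j with Gabpa.

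**Figure D3:**
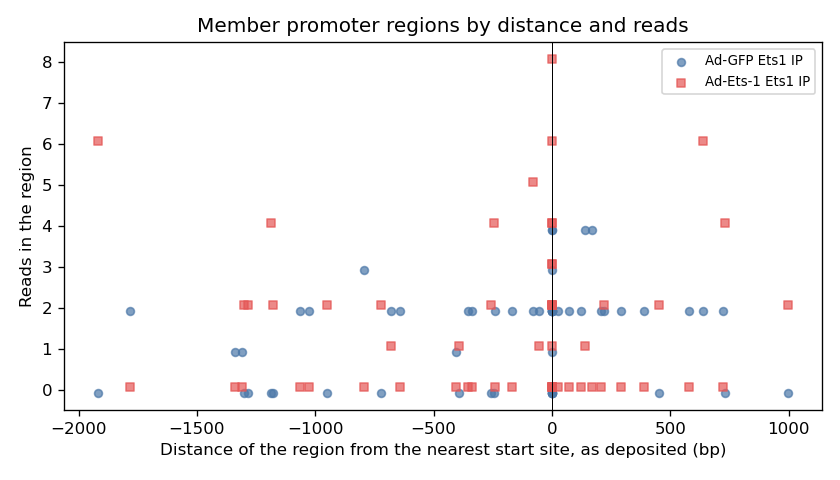
Each member promoter region by the deposited distance from its nearest start site (horizontal axis, bp; negative is before the start) and its reads (vertical axis) with Ad-GFP (circles) and Ad-Ets-1 (squares), 1 library each; points are shifted slightly in height so that equal counts can be seen. The counts of 5 to 8 are all squares, and the highest lies on a start.

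The promoters of these genes were rich in some recognition words. RefSeq windows, from 250 bases before to 50 after a start, were matched for 47 of the 58 members (49 windows). The NRF1 word occurred in 20.4% of them (10 windows, interval 10.2 to 34.3) against 3.51% of 21262 protein-coding windows, and the YY1 word in 12.2% (4.63 to 24.8) against 1.83%. The ETS words CCGGAAG or CAGGAAG occurred in 36.7% (18 windows, 23.4 to 51.7) against 22.6%. The ERR word was found in 1 member window, that of Atp5g3, or 2.04% against 0.334%. Over the 83 windows of all genes that the rule names, members included, 3 of these shares were lower. They were 14.5% for NRF1 (7.7 to 23.9), 9.64% for YY1 (4.25 to 18.1) and 31.3% for the ETS words (21.6 to 42.4), beside 2.41% for ERR. Among the 4317 windows with a GC content of 55% to 61%, the middle range of the members, the shares were 4.75% for NRF1, 2.57% for YY1 and 28.2% for the ETS words. The ETS share of members thus stood less far from other promoters of like GC, and its interval includes their value. The ETS word CCGGAAGT, which contains CCGGAAG, was in 3 member windows (6.12%), those of Cox8a, Ndufs3 and Uqcr11, against 5.15%. The core GGAA was in 98.0% and 95.7%.

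**Figure D4:**
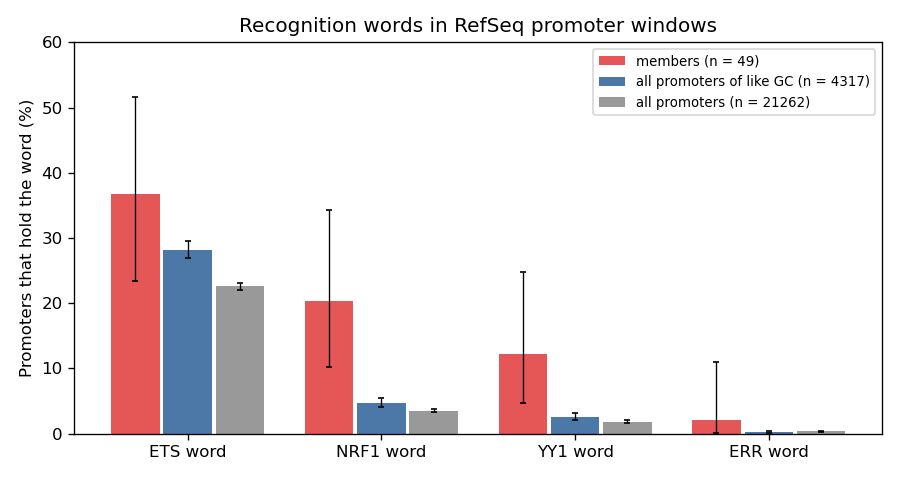
Share of RefSeq promoter windows that hold each word on either strand (vertical axis, percent) for members, for all protein-coding windows in the members' middle GC range and for all protein-coding windows; error bars are exact 95% intervals. The NRF1 word is in 20.4% of member windows against 4.75% and 3.51%, and the YY1 word in 12.2% against 2.57% and 1.83%.

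Members with a peak did not hold ETS words more often. These words were in 25.9% (11.1 to 46.3) of the 27 windows of members with a promoter peak in either list and in 50.0% (28.2 to 71.8) of the 22 windows of members without one, and these intervals overlap. CCGGAAGT was in 0 of 27 and 3 of 22 windows, and the NRF1 word in 14.8% and 27.3%. The YY1 word was in 18.5% and 4.55%. A listed promoter region overlapped 7 of the 49 windows, those of Ndufa6, Ndufa12, Ndufb4, Ndufb6, Ndufv2, Atp5j and Atp5j2, and 2 of these 7 held an ETS word. In the deposited regions themselves, read as 240 bases around the middle, an ETS word occurred in 5 of 55 member regions (9.09%) and in 10.3% of those of all named genes. These 5 were regions of Ndufs1, Ndufb2, Ndufv2, Uqcrc2 and Atp5j2, of which only that of Ndufs1 held CCGGAAGT.

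Most regions nearest to these genes lay away from promoters. Of 542, 59.8% were distal intergenic, 22.5% intronic and 10.1% at promoters, against 33.0%, 47.4% and 11.1% of all 211371 regions with a gene name. Ndufa4 and Cox7b2, a testis isoform, were nearest gene of 203 regions, or 37.5% of the total. Without these genes, 48.4% were distal and 16.2% at promoters. The 132 regions of Ndufa4 stretched over 456 kb (chr6:11443521-11899948), and its 129 distal ones lay a median of 276232 bp from the nearest start. Their density, 289 per Mb, was above the 199 per Mb of all regions on the chromosomes, as were the 257 of Cox7b2 and 374 of Cox7c. These genes were picked for their many regions, and each density was taken between the outermost regions of the gene. The value for the chromosomes divides by their whole length, so higher values follow in part from these choices. A typical member was nearest gene of 4 regions (median), and 14 members of 1 alone.

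**Figure D5:**
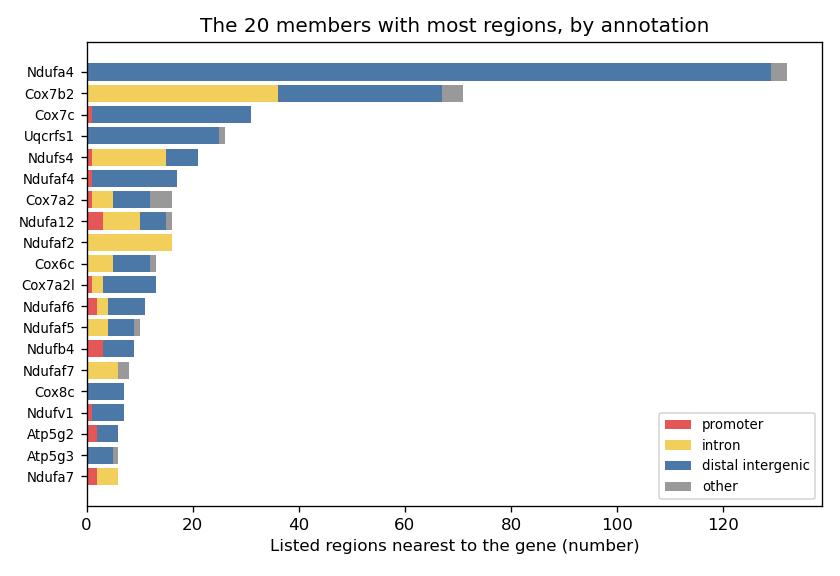
Number of listed regions nearest to each of the 20 members with most regions (horizontal axis), split by deposited annotation class. Ndufa4 has 132 regions, 129 of them distal, and Cox7b2 has 71, while promoter regions never exceed 3 in the genes shown.

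Outside promoters, a region 164632 bp from the start of Ndufa4 (chr6:11742209-11742761) had the most reads of any member region, with 10 with Ad-GFP, 2 with Ad-Ets-1 and 1 in the input, a ratio of 0.183 (0.00387 to 1.64). A region in an intron of a neighbouring gene, nearest to Cox6c, held 7, 1 and 0 reads, a ratio of 0.131 (0.00465 to 2.31). It and an intronic peak of Ndufaf6 were the only member peaks of the Ad-GFP list with a deposited q of at most 0.05, with folds of 3.65 and 3.58 in the authors' deposited table. In the Ad-Ets-1 list these were, besides Ndufs1, distal peaks of Cox7c and Ndufa4 and the exonic peak of Atp5j2, with folds of 3.71, 3.68 and 3.64. The share of all named peaks outside promoters that passed this threshold is not given here. These peaks are therefore listed without a background and set the members apart in no way. Ndufs3 held 6 reads with Ad-GFP and 0 with Ad-Ets-1 in its 3′ UTR, a ratio of at most 0.458 against the floor (0 to 2.22). Regions outside promoters nearest to Ndufb3, Ndufs8 and Uqcrfs1 held the same counts in these libraries. Such regions of Atp5j2, Cox7a2, Cox7a2l, Cox7c and Ndufa4 held the reverse, 6 with Ad-Ets-1 and 0 with Ad-GFP. Each interval given here for the virus ratio spans 1.

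Windows of 1 kb to either side of every GENCODE start site, added after seeing the data, cover also genes that were nearest gene of no region. Of 95 member genes, 27 had an overlapping Ad-GFP peak (28.4%) and 17 an Ad-Ets-1 peak (17.9%), against 36.5% and 28.7% of 21938 protein-coding genes, whose windows were longer (median 4002 against 2628 bases). Per 100 kb of window the numbers of genes were 7.82 and 4.92 for members and 7.90 and 6.22 for all. Of the 37 of these genes that were nearest gene of no region (36 symbols, as Atp5o names more than 1 gene), 2 had such a peak with Ad-GFP and none with Ad-Ets-1. Among them, Cox6a1 held 5 reads with Ad-GFP and 0 with Ad-Ets-1.

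Other genes of the pathway were counted against the same shares of all named genes, 48.6% with Ad-GFP and 37.7% with Ad-Ets-1. Of 24 named assembly genes of complexes I to V outside the rule, 9 had an Ad-GFP promoter peak (37.5%) and 8 an Ad-Ets-1 one (33.3%), both below those shares. Genes of ubiquinone synthesis and electron carriers had 8 and 6 of 14 (57.1% and 42.9%), both above, and regulators of mitochondrial genes 5 and 4 of 12 (41.7% and 33.3%). With 12 to 24 genes a list, these differences were not tested. Coq4, which organises ubiquinone synthesis, held 8 reads with Ad-Ets-1 and 0 in both other libraries over its start, the same counts in the precipitated libraries as Ndufs1. A start of Trub2 lay 105 bp from this region, so its reads cannot be assigned to Coq4 alone. Coq2 held 6 reads with Ad-Ets-1, 3 with Ad-GFP and 0 in the input over its start. Uqcc2 and Nubpl, assembly factors of complexes III and I, each held 6 with Ad-Ets-1, 2 with Ad-GFP and 0 in the input. Polg2, a subunit of the mitochondrial DNA polymerase, held 5 with Ad-GFP and 0 with Ad-Ets-1. These genes were picked from the lists for their reads.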

How the data were processed

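Per the submitters' processing notes, the tools were BWA 0.7.12, MACS2 2.1.0, Trimmomatic and FastQC, and the build mm10. Their settings are not stated in these sources. The authors deposited, per the file headers, a score, a fold enrichment and −log10 values of p and q for each peak, and in the comparison table read counts per region, RPM values (from the count plus 1), ratios of these and a log2 ratio. Classes, nearest genes and distances are those deposited. Starts of the peak lists were raised by 1. The members and gene lists were chosen with earlier results of these data known.

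Library totals were recovered from deposited counts and RPM. Of nonzero counts, 72.0% (Ad-Ets-1), 74.5% (Ad-GFP) and 19.0% (input) were even, so 2 reads were taken as 1 fragment in the precipitated libraries. Ratio intervals are exact conditional binomial, shares Clopper-Pearson; no ratio is given where both counts are 3 or fewer. The interval and word scripts were tested on simulated data. The rule for named genes took member promoters with 8 or more reads, with a peak in both lists or with a q of at most 0.05, the 5 highest folds per list, the 5 largest and smallest ratios from 5 reads up, and other regions with 8 or more reads; further members were chosen after their values were seen, as were the promoters printed. GENCODE M21 gave start sites and exons. Alternatives were stricter thresholds, other promoter definitions, fewer members, fragments, other scaling and other words. Software was Python 3.11.15 with pandas 2.3.3, numpy 2.4.6, matplotlib 3.10.9, scipy 1.17.1 and pysam 0.24.0.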

Additional observations from a re-analysis of the deposited data

How the results depend on the processing

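No paired analysis was possible because the libraries carry no replicate numbers. The counts of members with a promoter peak rest on the deposited threshold. With Ad-GFP, 0 of 25 were left at a q of at most 0.05, 0 at a fold from 3 up and 0 with 5 or more reads; all named genes gave 0.75%, 1.12% and 3.43%. With Ad-Ets-1, 1, 2 and 5 of 19 were left, or 1.72%, 3.45% and 8.62% of members against 1.66%, 2.74% and 5.42% of all named genes. In both lists there were 0, 0 and 0 of 10, against 0.121%, 0.147% and 0.488% of all named genes. With shares this low, these counts of 0 say nothing about the members. The count was also 0 where peaks of both lists had to cover each other in large part, a setting without a share over all named genes. Promoters within 1 kb alone, or leaving out assembly factors and tissue isoforms, moved the 3 counts by less than 1.5 times, but the latter put the Ad-GFP share (50%) above that of all genes. Start-site windows, over 95 genes in place of 58, gave 28.4%, 17.9% and 9.47% in place of 43.1%, 32.8% and 17.2%. All protein-coding genes, whose windows were longer, gave 36.5%, 28.7% and 16.8%. The Ad-Ets-1 to Ad-GFP ratio of summed member promoter reads was 4.73 over the 5 regions with 5 or more reads, in place of 1.01, and between 0.893 (without Atp5j2) and 1.04 under the other settings. Over these 5 regions the Ad-GFP to input ratio was 3.33. Scaled to reads in the promoters of all named genes, the ratios to input were 1.92 with Ad-GFP and 1.99 with Ad-Ets-1. The highest counts in a single region of those promoters were 122344 with Ad-Ets-1, 110707 with Ad-GFP and 38590 in the input. The share of member windows with an ETS word was 36.7%, against 6.12% for CCGGAAGT, 98.0% for GGAA and 9.09% in the deposited regions. Depth limits the values that rest on reads: the median member promoter region held 1 read with Ad-Ets-1 and 2 with Ad-GFP.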

Other observations

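Non-coding genes, such as processed pseudogenes, named after these genes, which carry no gene name in the deposited table, were nearest gene of 113 regions. They were 10 in number. These regions held 110 reads with Ad-Ets-1, 149 with Ad-GFP and 16 in the input, and none held more than 6 in a precipitated library. Reads of such copies can be hard to place between a gene and its pseudogene, and the mapping quality behind the counts was not analysed here.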
